A study of Mus musculus with 6 samples.

Results

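The 10 genes described here encode parts of the transforming growth factor beta (TGF-beta) pathway and its nuclear targets: the ligands Tgfb1, Tgfb2 and Tgfb3, the receptors Tgfbr1 and Tgfbr2, the SMAD proteins Smad3 and Smad7, and the inhibitors of DNA binding Id1, Id2 and Id3. They were chosen by symbol, and each of the 10 matched 1 Ensembl identifier among the 55414 genes of the table. Bulk RNA was sequenced from TM4, an established cell line from mouse testis that serves as a model of Sertoli cells, as 3 control libraries and 3 VC libraries. On the agent the labels disagree, since the titles point to vitamin C and other fields to valine; the group is therefore called VC, and neither dose nor time was given. Both groups were the same line, and whether replicates were separate cultures is not stated, so the spread behind each p-value may be technical only.

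TGF-beta dimers are secreted in a latent form and, once released, bind the type II receptor TGFBR2, which phosphorylates the type I receptor TGFBR1. The type I receptor phosphorylates SMAD2 and SMAD3, which enter the nucleus with SMAD4; bone morphogenetic proteins (BMPs) act in the same manner through other receptors and SMAD1, SMAD5 and SMAD9, and the Id genes are among their best known targets. SMAD7 is induced by the pathway and shuts its receptors down, and ID proteins lack a DNA-binding domain and hold helix-loop-helix E-proteins away from DNA. In the testis, members of this family act between Sertoli, germ and peritubular cells.

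The promoter sequences of Id3 and Id2 are shown because these genes had lower values in every VC library, and that of Grem1, a secreted BMP antagonist, because it was the pathway gene with a higher call. Tgfb2 and the target gene Acta2, among others, were also lower in every VC library, and their windows are not printed. Id1 and Smad7 were lower in every VC library too, but no window was matched for them. The called target Ccn2 was likewise lower, and no window is given for it. Each run holds the 250 bases before the RefSeq start on build GRCm38.p6, an earlier build than the one used for alignment, 5′ to 3′ on the gene's strand: Id3 at chr4:136143572-136143821 (plus strand), Id2 at chr12:25096093-25096342 (minus strand) and Grem1 at chr2:113758649-113758898 (minus strand). Capitals mark GGCGCC, a GC-rich element bound by BMP-activated SMADs, and CAGAC or its complement GTCTG, which hold the SMAD box GTCT.
Id3: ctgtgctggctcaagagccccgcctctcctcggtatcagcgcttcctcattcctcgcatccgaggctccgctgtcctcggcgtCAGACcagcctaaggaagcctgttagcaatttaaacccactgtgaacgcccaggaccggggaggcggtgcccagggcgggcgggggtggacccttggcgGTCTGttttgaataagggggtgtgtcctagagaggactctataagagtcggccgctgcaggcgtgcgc
Id2: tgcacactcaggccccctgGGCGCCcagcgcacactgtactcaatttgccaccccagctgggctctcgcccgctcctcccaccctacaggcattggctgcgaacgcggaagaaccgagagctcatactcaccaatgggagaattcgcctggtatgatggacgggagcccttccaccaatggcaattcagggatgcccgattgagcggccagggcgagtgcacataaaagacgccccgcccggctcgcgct
Grem1: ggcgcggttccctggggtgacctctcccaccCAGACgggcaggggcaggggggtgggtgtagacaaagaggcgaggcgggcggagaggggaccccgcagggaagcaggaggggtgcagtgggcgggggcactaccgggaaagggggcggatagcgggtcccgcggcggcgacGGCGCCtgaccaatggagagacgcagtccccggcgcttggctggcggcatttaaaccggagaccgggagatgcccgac
The Id3 window held CAGAC on either strand at 167 and 68 bases before the start and no GGCGCC. The Id2 window held GGCGCC at 231 bases before the start and no CAGAC, and the Grem1 window held both, at 78 and 219 bases before the start. Of the windows not printed, that of Tgfb2 held CAGAC on either strand at 221 and 204 bases before the start. That of Acta2 held it at 235 bases, and both were without GGCGCC. Genes with no call held such matches too. The Tgfbr2 window held CAGAC at 160 bases, a Tgfbr1 window held GGCGCC at 233 and another Tgfbr1 window held CAGAC at 203. The windows of Tgfb1 and Smad3 held neither. Over all 32851 RefSeq windows of this length, 9.59% held GGCGCC and 42.2% held CAGAC on either strand. Such matches are descriptions of sequence and not measured binding sites; promoters were matched for 7 of the 10 genes.

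Each value is a TPM-like level (reads per exon length and depth) with TMM scaling between libraries, so levels can be compared between genes per length. Recovered reads put the depth at 20408425 to 22316857 per library, and each of the 10 genes rested on 119 to 5613 reads in a library. Control replicate 3 stood apart, with a chi-square per degree of freedom of 9.57 to 17.2 against any other library, while pairs without it gave 2.78 to 7.28. Of the Sertoli markers, Gata4 (19.2 ± 0.631 in control, SD, n = 3) and Sox9 (3.01 ± 0.239) were present, and Wt1, Fshr and Dmrt1 were listed at 0 in every library. The 6 markers each of Leydig, germ and endothelial cells summed to at most 3.53, 0.557 and 4.09 in any library, and of the 6 macrophage markers Cd14 (54.2 ± 6.56 in control) and Cd68 (4.26 ± 1.21) passed the filter, while Ptprc, Lyz2, Csf1r and Adgre1 were at 0.401 or less.

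The 10 genes spanned a wide range of levels, and each passed the expression filter (3 or more libraries at 1 or above). Id1 was highest, with a mean value of 131.3 over the 6 libraries, followed by Tgfbr2 at 82.2, Id3 at 37.5, Smad7 at 26.98, Id2 at 24.6, Tgfb1 at 17.98, Smad3 at 12.6, Tgfb3 at 10.6, Tgfbr1 at 7.21 and Tgfb2 at 2.94. The ranges over libraries overlapped between Id3 and Smad7, between Smad7 and Id2 and between Smad3 and Tgfb3, and between no other neighbours in this order.

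**Figure D1:**
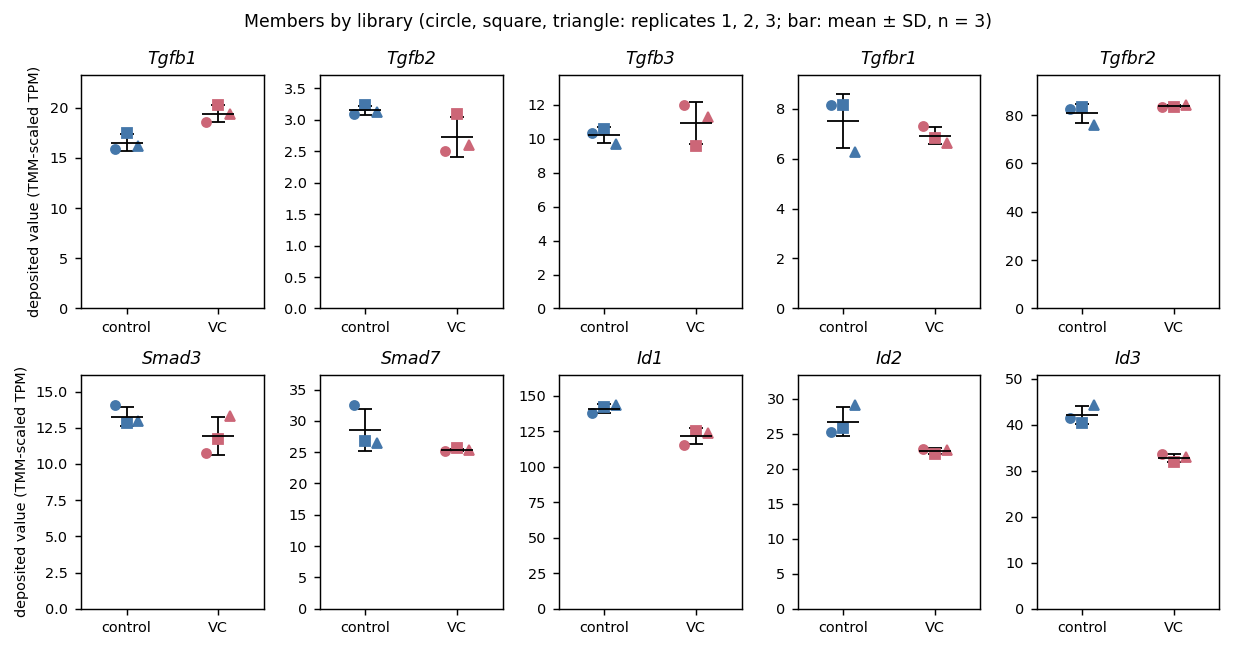
Deposited value (vertical axis, TMM-scaled TPM, from 0) of each of the 10 genes in the 3 control and 3 VC libraries; symbols are libraries and bars are mean ± SD. The VC libraries of Id1, Id2 and Id3 all sit below the control libraries, and those of Tgfb1 all sit above.

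In VC the 3 Id genes were lower than in control and Tgfb1 was higher, but of the 10 genes only Id3 passed limma's adjusted threshold of 0.05. Id3 fell by 0.35 on the log2(value + 1) scale (SE 0.047, limma adjusted p = 0.0348). Across all 13972 genes tested, limma called 0.687%, with 0.429% (60 genes) higher and 0.258% (36 genes) lower, so 1 call among these 10 is above that share but rests on 1 gene. An unadjusted p under 0.05 was reached by 4 of the 10 and by 17.2% of all genes, and limma-voom on recovered reads called 2 of the 10, Id3 and Id1, and 3.98% of all genes. In 7 of the 10 genes the 3 VC libraries lay on one side of the 3 control libraries, 5 below and 2 above; the same held for 25.6% of all genes tested, with 11.6% below and 13.9% above. The genes were chosen with earlier results of these data known, so these counts describe the set and do not test it. With libraries scaled to equal totals limma called 182 genes higher and 35 lower, and the median over every tested gene went from 0.012 to 0.078.

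Id3, an inhibitor of E-proteins and a direct BMP target, had values of 41.6, 40.5 and 44.3 in control replicates 1, 2 and 3 and 33.7, 31.9 and 33.0 in VC. The groups did not overlap, and the lowest control value stood well above the highest VC value. The VC mean was 0.781 times the control mean (32.9 ± 0.873 against 42.1 ± 1.95, SD, n = 3), with a 95% interval of the log2 fold change from -0.46 to -0.24. The fall kept its direction when a library was left out, but limma's adjusted p was 0.125 or 0.0972 on leaving out control replicate 1 or 2, and 0.132, 0.163 or 0.175 on leaving out VC replicate 1, 2 or 3. Without control replicate 3, the library that stood apart, the call remained at a limma adjusted p of 0.0492. The call was also lost with no expression filter (0.0754), with no intensity trend (0.0967) and with the replicate block (0.131).

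Id1, the most abundant of the family, had values of 138, 142 and 143 in control and 115, 125 and 124 in VC. The groups did not overlap, and VC replicate 1 was the lowest library. The log2 fold change was -0.22 (95% interval -0.32 to -0.11, limma adjusted p = 0.0806), and limma-voom on recovered reads called it at an adjusted p of 0.0409. Id2, a relative with a longer C-terminal region, had values of 25.3, 25.8 and 29.1 in control and 22.8, 22.1 and 22.7 in VC, again without overlap. Its log2 fold change was -0.23 (95% interval -0.38 to -0.09, limma adjusted p = 0.1299), with control replicate 3 the highest library. Id4, the remaining paralog, was at 0.101 or less in every library.

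The makeup of the Id family overlapped between the groups. Id3 made up 20.05% ± 0.566 of the summed value of the 4 Id genes in control and 18.6% ± 0.931 in VC (SD, n = 3), and the libraries overlapped. Id1 made up 67.2% ± 1.02 and 68.6% ± 1.42, and Id2 12.7% ± 0.600 and 12.7% ± 0.513, also with overlap. These shares do not depend on library scaling. The ratio of Id3 to Id1 overlapped as well, at 0.298 ± 0.0125 in control and 0.271 ± 0.0193 in VC, whereas that of Tgfb1 to Id3 was 0.394 ± 0.0350 and 0.592 ± 0.0416 (SD, n = 3) without overlap. Tgfb1 and Id3 each lay apart between the groups in opposite directions, so the separation of their ratio follows from those values.

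E-proteins are the partners that ID proteins hold back. Tcf3, which encodes E2A, had values of 67.9, 64.5 and 65.2 in control and 60.7, 58.3 and 56.4 in VC, so it too was lower without overlap, at a log2 fold change of -0.17 (limma adjusted p = 0.122). Tcf4, another E-protein gene, named after its values were seen, lay the other way, at 10.6, 9.59 and 8.96 in control and 10.7, 10.8 and 11.0 in VC, narrowly without overlap (log2 fold change 0.14, limma adjusted p = 0.350). Tcf12 was at 22.5 ± 1.43 and 23.4 ± 0.590, and Hes1, a repressor best known as a Notch target, at 13.0 ± 1.62 and 11.4 ± 1.09 (SD, n = 3). Of the 7 tested genes on the list of ID proteins and partners Id3 alone was called, beside 0.258% of all genes called lower. The list's median log2 fold change was -0.17, beside 0.012 for all genes tested.

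**Figure D2:**
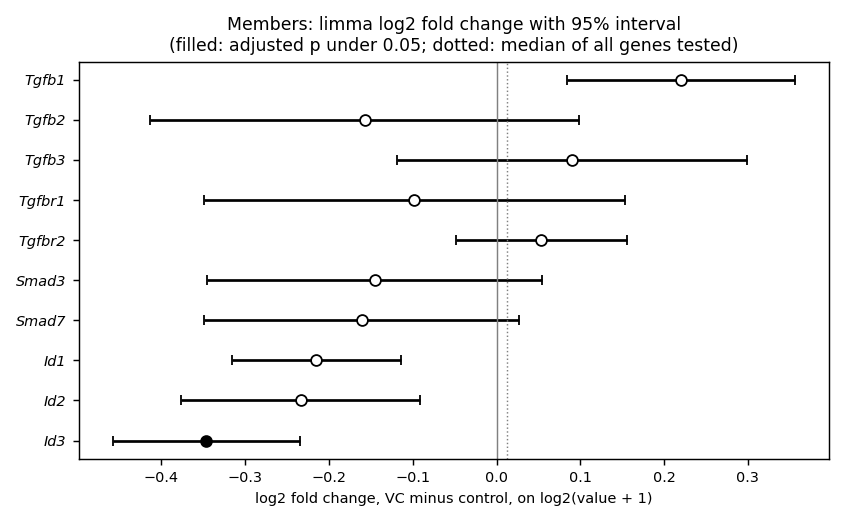
Log2 fold change of VC minus control on log2(value + 1) (horizontal axis) for the 10 genes, with limma's 95% interval; the filled point passed the adjusted threshold. The intervals of Id1, Id2, Id3 and Tgfb1 exclude 0, and Id3 is the filled point.

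Among the ligands, Tgfb1 was the most abundant and had higher values in VC. It was at 15.9, 17.5 and 16.2 in control and 18.6, 20.3 and 19.4 in VC, so every VC library lay above every control library. The log2 fold change was 0.22 (95% interval 0.08 to 0.36), and it did not pass (limma adjusted p = 0.133, range over the alternatives 0.0654 to 0.340). Tgfb2, the least abundant of the 10 genes, was at 3.10, 3.24 and 3.12 in control and 2.50, 3.09 and 2.60 in VC. VC replicate 2 thus lay just under the control libraries and the other VC libraries further below (log2 fold change -0.16, 95% interval -0.41 to 0.10, limma adjusted p = 0.495). Tgfb3 was at 10.3, 10.6 and 9.68 in control and 11.995, 9.59 and 11.3 in VC, and the groups overlapped (0.09, 95% interval -0.12 to 0.30, limma adjusted p = 0.641). Exons of Tgfb2 and Tgfb3 overlap predicted genes on the opposite strand, and the sources used here do not say whether reads were counted by strand.

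The balance among the ligands differed in the same direction. Tgfb1 was 55.3% ± 0.929 of the 3 ligand genes in control and 58.7% ± 2.70 in VC, and Tgfb2 was 10.5% ± 0.222 and 8.25% ± 0.989 (SD, n = 3), each without overlap. Tgfb3 made up 34.1% ± 0.945 and 33.1% ± 3.66 and overlapped. With 3 libraries against 3, an exact two-sided permutation test cannot go below p = 0.1, so these shares are given without one.

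Other ligands of the superfamily were read from lists of the pathway. Inhbb, the activin beta-B subunit, was the most abundant ligand gene, at 158, 151 and 158 in control and 179, 173 and 177 in VC, with no overlap (log2 fold change 0.18, limma adjusted p = 0.0747). Limma called it with equal totals (adjusted p = 0.0258), after quantile normalization (0.0434) and on recovered reads by limma-voom (0.0252). Inhba, the beta-A subunit, was at 119 ± 11.6 and 116 ± 3.79, and Gdf11, an activin-like factor, at 23.2 ± 0.934 and 23.1 ± 0.9754 (SD, n = 3). None of the 9 tested TGF-beta and activin ligand genes was called by limma. An unadjusted p under 0.05 was reached by 2, beside 17.2% of all genes, and limma-voom called Inhbb, beside 3.98% of all genes.

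BMP ligand transcripts were scarce in these cells. Of 16 genes on the list only Bmp1 passed the filter, and it encodes a procollagen protease rather than a ligand; it was at 18.5 ± 0.553 in control and 19.7 ± 1.26 in VC. The other 15 reached at most 0.257 in any library, and 9 of them, Bmp2, Bmp4 and Bmp7 included, were listed at 0 in all 6. A count of 0 allows up to 3 reads per library, which corresponds to a value of at most 0.109 for Bmp2, 0.173 for Bmp4 and 0.0969 for Bmp7, for counting error only.

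**Figure D3:**
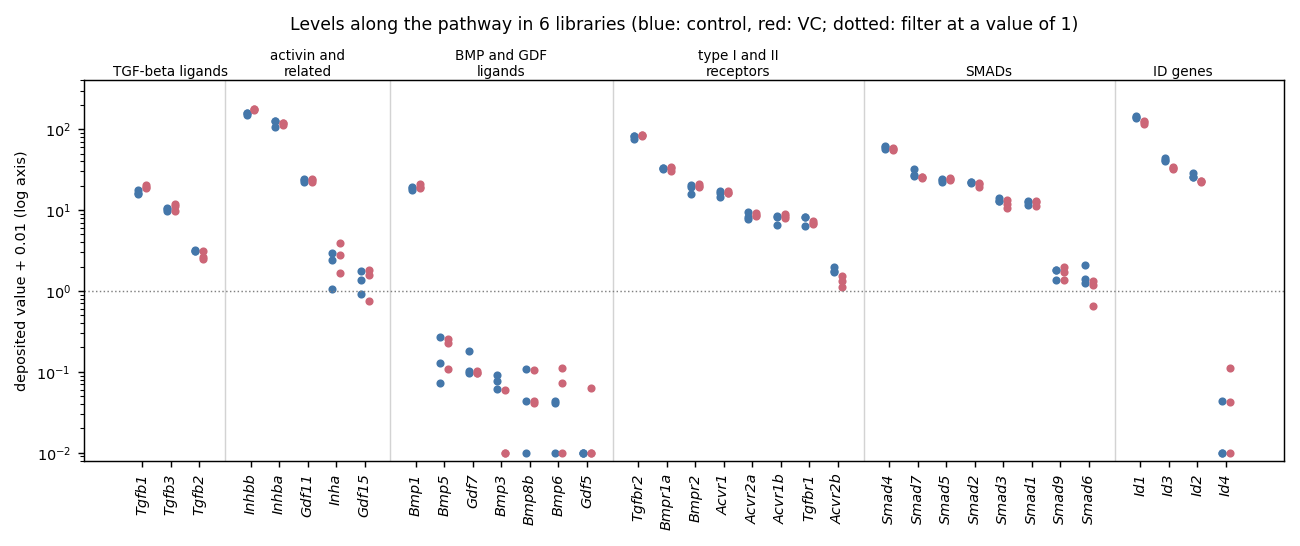
Level of selected pathway genes in each library (vertical axis, deposited value + 0.01 on a log scale); blue points are control, red points are VC and the dotted line is the filter at a value of 1. Ligand genes listed at 0 in every library are left out. In the panel of BMP and GDF ligands the genes other than Bmp1 lie below 1 (Gdf11 and Gdf15 are plotted with the activins), while Bmpr1a, Bmpr2 and Acvr1 receptors and the Id genes other than Id4 lie well above it.

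Receptor transcripts gave no call. Tgfbr2, the ligand-binding type II receptor, was at 82.6, 83.3 and 76.1 in control and 83.5, 83.4 and 84.2 in VC. The VC libraries lay only narrowly above the control libraries, and control replicate 3 was the one low value. The log2 fold change was 0.05 (95% interval -0.05 to 0.16, limma adjusted p = 0.567), and 0.01 without control replicate 3. Tgfbr1, the signalling type I receptor, was at 8.14, 8.12 and 6.27 in control and 7.29, 6.81 and 6.63 in VC, with overlap (-0.10, 95% interval -0.35 to 0.15, limma adjusted p = 0.675). Here too control replicate 3 was the low control, and without it the log2 fold change was -0.21 (limma adjusted p = 0.214). Tgfbr2 exceeded Tgfbr1 by 10.8 ± 1.12 times in control and 12.1 ± 0.623 times in VC (SD, n = 3), with overlap.

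Of the 12 type I and type II receptor genes 8 passed the filter, and Acvr1c, Acvrl1, Bmpr1b and Amhr2 were at 0.141 or less in every library. Bmpr1a, a type I BMP receptor, was at 32.8 ± 0.261 in control and 32.7 ± 1.89 in VC, Bmpr2, its type II partner, at 18.4 ± 2.31 and 19.998 ± 0.647, and Acvr1, another type I receptor, at 16.0 ± 1.46 and 16.7 ± 0.548 (SD, n = 3). Of the 8 tested limma called none, none had an unadjusted p under 0.05, and limma-voom called none; the median log2 fold change was 0.04. Among co-receptors Tgfbr3 (betaglycan), which presents TGF-beta to TGFBR2 and binds inhibin, was at 46.8, 50.8 and 44.1 in control and 56.5, 57.7 and 56.1 in VC. A predicted gene on the same strand shares exon bases with it. Its VC libraries lay above control, at a log2 fold change of 0.26 (limma adjusted p = 0.0909), and limma-voom called it at an adjusted p of 0.0139. Cd109, a co-receptor that dampens TGF-beta signalling, was at 23.9 ± 1.20 and 27.5 ± 1.18, and Rgma, a BMP co-receptor, at 11.96 ± 0.714 and 11.6 ± 0.666 (SD, n = 3). Limma called none of the 7 tested co-receptors, and 2 had an unadjusted p under 0.05, beside 17.2% of all genes.

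The genes that hold and release latent TGF-beta were likewise without a call. Thbs1, thrombospondin 1, an activator, was at 358 ± 21.9 in control and 347 ± 5.004 in VC, Ltbp1, a latent TGF-beta binding protein, at 77.4 ± 3.07 and 78.6 ± 1.79, and the integrin subunit Itgav at 62.1 ± 5.84 and 63.0 ± 1.76 (SD, n = 3). Of the 12 tested none passed limma or limma-voom, and none had an unadjusted p under 0.05.

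Smad3, which carries the TGF-beta signal to DNA, was at 14.1, 12.8 and 13.0 in control and 10.7, 11.8 and 13.3 in VC. VC replicate 3 lay inside the control range, and the log2 fold change was -0.15 (95% interval -0.35 to 0.05, limma adjusted p = 0.423). Smad7, the inhibitory SMAD that both branches induce, was at 32.5, 26.8 and 26.5 in control and 25.2, 25.6 and 25.3 in VC. The groups did not overlap, but control replicate 1 stood far above the other controls, and the log2 fold change of -0.16 (95% interval -0.35 to 0.03, limma adjusted p = 0.351) became -0.07 without it.

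The remaining SMADs showed no call. Smad4, the partner shared by both branches, was at 59.4 ± 2.16 in control and 56.7 ± 1.87 in VC, the BMP-activated Smad5 at 23.3 ± 1.03 and 24.3 ± 0.563, and Smad2 at 22.1 ± 0.561 and 20.7 ± 1.39 (SD, n = 3). Of the 8 SMAD genes, all tested, limma and limma-voom called none and none had an unadjusted p under 0.05; the median log2 fold change was -0.08. It was -0.01 with equal totals, where that of all genes was 0.078. Among 24 regulators of SMADs and receptors limma and limma-voom called none, while 3 had an unadjusted p under 0.05, beside 17.2% of all genes. Strap, which binds the receptors with SMAD7, was at 365 ± 18.5 and 337 ± 6.06, Fkbp1a, a brake on the type I receptor, at 315 ± 20.2 and 292 ± 9.30, and Pmepa1, a SMAD-induced inhibitor, at 65.9 ± 3.12 and 70.7 ± 3.69 (SD, n = 3). Of 14 tested SMAD partner factors limma and limma-voom called none and 2 had an unadjusted p under 0.05, beside 17.2% of all genes. E2f4, a cell-cycle repressor that SMADs can recruit, was at 170.1 ± 9.54 and 166 ± 5.73. The coactivator Wwtr1 was at 74.8 ± 3.33 and 78.6 ± 1.26, and the coactivator Yap1 at 48.8 ± 1.57 and 48.2 ± 1.34.

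A secreted antagonist, Grem1 (gremlin 1, which binds BMPs and keeps them from their receptors), rose in VC. It was at 36.2, 36.6 and 32.8 in control and 44.8, 46.4 and 44.2 in VC, so all VC libraries lay clear of control. The rise was 0.35 log2 units (SE 0.052, 95% interval 0.23 to 0.48, limma adjusted p = 0.0454), or 1.28 times the control mean. Like that of Id3, this call was lost with no filter (limma adjusted p = 0.0898), with no intensity trend (0.110) and with the replicate block (0.131). It was also lost on leaving out control replicate 1 or 2 (0.125 or 0.107) or VC replicate 1, 2 or 3 (0.150, 0.171 or 0.186), and remained without control replicate 3 (0.0488). The ratio of Grem1 to Id3 within a library, which scaling does not touch, was 0.870, 0.905 and 0.741 in control and 1.33, 1.45 and 1.34 in VC. These genes were paired with their opposite calls known, so the separation of the ratio follows from that choice and is no further evidence.

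Other antagonists did not pass. Of the 11 tested, Grem1 was the 1 called by limma, beside 0.429% of all genes called higher. Without overlap 3 of the 11 lay above control and 2 below, beside 13.9% and 11.6% of all genes tested. The list's median log2 fold change was -0.02, or 0.05 with equal totals, beside 0.012 and 0.078 for all genes tested. Fst (follistatin, which binds activins), named here after its values were seen, was at 14.2, 15.6 and 16.0 in control and 11.5, 12.3 and 11.1 in VC, and so lay in the opposite direction to Grem1. Its log2 fold change was -0.36 (limma adjusted p = 0.0704), and it was called in 2 of the 15 alternatives, limma-voom among them; a predicted gene lies on the opposite strand over its exons. Nbl1, also on this list and named after its values were seen, lay below control without overlap. It was at 55.9, 53.5 and 56.3 in control and 47.2, 49.7 and 48.6 in VC (log2 fold change -0.18, limma adjusted p = 0.0930). Bgn (biglycan) was at 556 ± 11.3 and 541 ± 13.0, Fstl1 at 87.1 ± 2.19 and 85.7 ± 2.21, and Twsg1 at 72.3 ± 3.12 and 77.2 ± 0.925 (SD, n = 3). Nog, the classical BMP antagonist noggin, was listed at 0 in every library.

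Of the 28 TGF-beta target genes tested and reported here 2 fell and none rose at limma's adjusted threshold: Acta2 (smooth muscle actin) and Ccn2 (connective tissue growth factor). The share of all tested genes called lower was 0.258%. Acta2 was at 589, 604 and 646 in control and 380.4, 378 and 387 in VC. Ccn2 was at 371, 384 and 387 in control and 303, 314 and 318 in VC, and a predicted gene lies on the opposite strand over its exons. Both genes were lower in every VC library, Acta2 by a log2 fold change of -0.68 (limma adjusted p = 0.0111) and Ccn2 by -0.29 (limma adjusted p = 0.0293). Limma-voom called 6 of the 28, beside 3.98% of all genes: Acta2, Ccn2 and Cnn1 lower and Hmga2, Cdkn1a and Bhlhe40 higher. With equal totals limma called Acta2 and Ccn2 lower and Cdkn1a and Bhlhe40 higher. The 2 to 0 split therefore depends on the setting. Without overlap 11 of the 28 lay below control and 5 above, beside 11.6% and 13.9% of all genes tested. The list's median of -0.02 became 0.05 with equal totals, where that of all genes went from 0.012 to 0.078. The most highly expressed targets had no call: Ccn1 was at 1318 ± 36.2 and 1208 ± 25.1, Fn1 (fibronectin) at 929.5 ± 129 and 981 ± 18.3, and Itgb1 at 867 ± 12.2 and 821 ± 14.8 (SD, n = 3). These target lists were drawn up with earlier results in view and are no independent evidence of a direction.

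The calls of Acta2 and Ccn2 changed with the libraries used. Both were lost by limma without control replicate 2 (adjusted p = 0.0698 and 0.107, in the same order), VC replicate 1 (0.0559 and 0.126), VC replicate 2 (0.0855 and 0.135) or VC replicate 3 (0.0658 and 0.140) and with the replicate block (0.103 and 0.131). Without control replicate 1 Acta2 kept its call, whereas Ccn2 (0.0862) did not. Ccn2 was also lost with no intensity trend (0.0967) and with no filter (0.0669).

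Among 14 tested BMP target genes Id3 alone was called, beside 0.258% of all genes called lower. Limma-voom called Id3 and Id1, beside 3.98% of all genes. In this list 5 genes lay below control without overlap and none above, where the shares over all genes tested were 11.6% and 13.9%. These 5 were Id1, Id2, Id3, Smad7 and Atoh8. The list's median log2 fold change was -0.09, and -0.03 with equal totals against 0.078 for all genes. Targets outside the Id family included Gata2 at 25.4 ± 1.12 in control and 26.5 ± 1.56 in VC, Runx2, a bone and cartilage regulator, at 16.8 ± 1.64 and 18.1 ± 0.748, and Bambi, a decoy receptor, at 6.38 ± 0.121 and 6.08 ± 0.485 (SD, n = 3). Atoh8, a helix-loop-helix factor named after its values were seen, was at 7.11, 6.32 and 7.59 in control and 4.57, 5.18 and 5.40 in VC (limma adjusted p = 0.112).

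**Figure D4:**
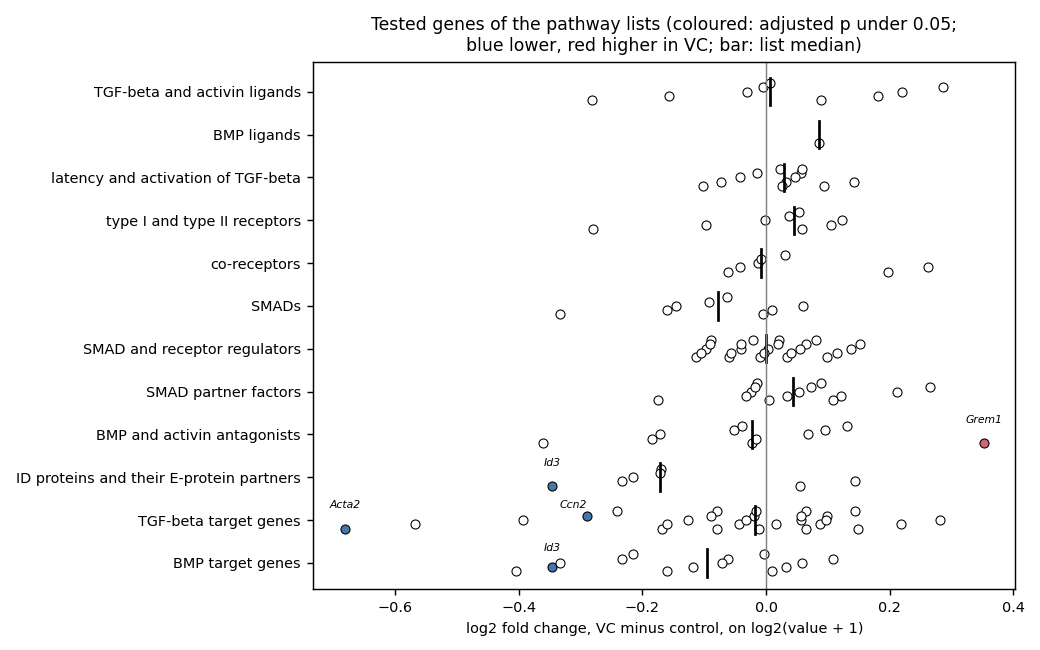
Log2 fold change of VC minus control on log2(value + 1) (horizontal axis) for the tested genes of each pathway list; each point is a gene, bars are list medians and coloured points passed limma's adjusted threshold. Grem1 is the coloured point above 0, and Id3, Acta2 and Ccn2 are those below 0.

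Other quantities moved with the group. Column totals of the deposited values were 1007530 to 1058206 in control and 966031 to 983802 in VC, so the scaling itself differed by group. The 6 markers of peritubular myoid cells summed to 725.8 to 802.9 in control and 472.8 to 493.6 in VC. Most of this sum was Acta2, the same gene as among the TGF-beta targets, at 613 ± 29.3 and 382 ± 4.39 (SD, n = 3). Acta2 and Actg2 were called lower of 4 tested, beside 0.258% of all genes. Cnn1 was at 15.8 ± 1.21 and 10.4 ± 1.36 without overlap (log2 fold change -0.57, limma adjusted p = 0.0672), and limma-voom called it lower. Tagln was at 3.78 ± 0.743 and 2.68 ± 0.799 with overlap (-0.39, limma adjusted p = 0.360). The 4 tested markers had a median log2 fold change of -0.55. Myh11 was near 0, and Des, under the filter, was at 0.604 ± 0.369 and 0.725 ± 0.126, with overlap. All libraries were of the same line, and whether any myoid cells were present was not tested. In bulk RNA a change in the share of such cells and less RNA per cell cannot be told apart. Ribosomal protein genes had a median log2 fold change of -0.12 over 82 genes, and mitochondrially encoded genes -0.12 over 32. Of 4 equal bins of tested genes by exon length, the shortest, which holds Id1 (1160 bases), had a median of -0.04, the next, which holds Id2 and Id3, -0.01, and the longest 0.05. The part of these in the changes of Id3, Grem1, Acta2 and Ccn2 was not tested.

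The genes closest in profile to Id3, by the root mean square difference of centred log2(value + 1) over the 6 libraries, were Ldha (0.016), Pgk1 (0.018) and P4ha1 (0.027), and their log2 fold changes were -0.36, -0.37 and -0.36 (limma adjusted p = 0.0438, 0.0348 and 0.0293). By the same measure the closest of the other 9 genes here was Id2, at 0.065. For Id1 the closest were Prdx4 (0.020), Gm5855 (0.021) and Gm12715 (0.023), and among the other 9 genes here Tgfb2, at 0.061. All 6 libraries share the group difference, so genes with a like difference lie close by this measure.

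**Figure D5:**
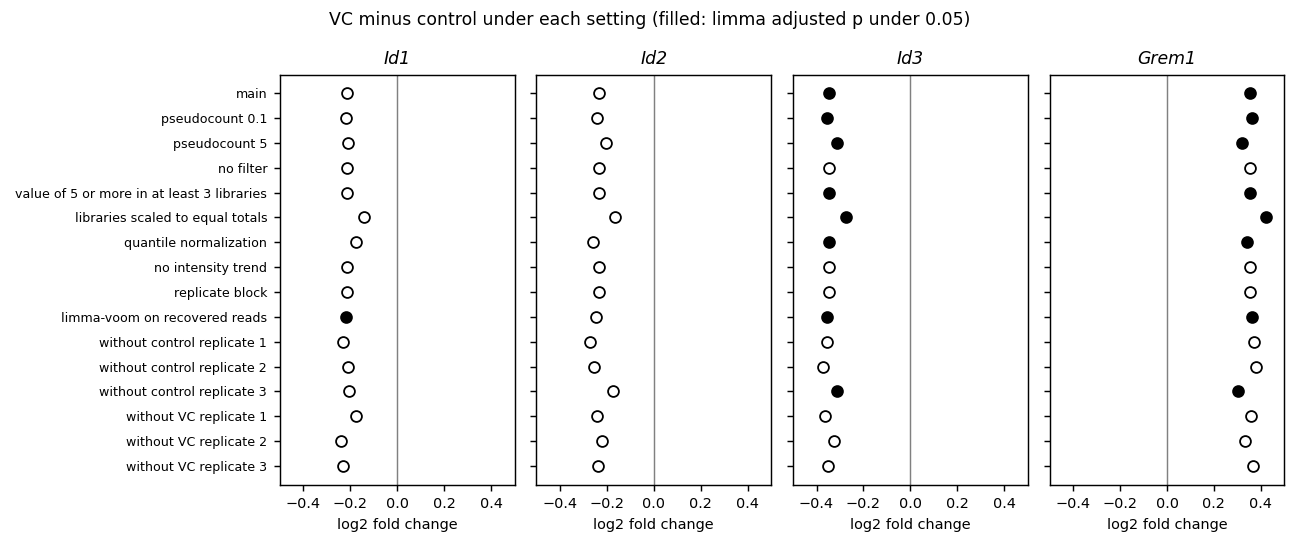
Log2 fold change of VC minus control (horizontal axis) for Id1, Id2, Id3 and Grem1 under the reported analysis and each of the 15 alternatives (rows); filled points have a limma adjusted p under 0.05. Every point for the 3 Id genes lies below 0 and every point for Grem1 above 0, while the filled points of Id3 and Grem1 come and go with the setting.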

How the data were processed

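RNA from 3 control and 3 VC libraries of TM4 cells was extracted with Trizol and made into TruSeq libraries, per the labels' protocols. The submitters' processing notes name HISAT2 and GRCm39. How reads were counted, on which annotation and with which strand setting, was not stated. Values deposited by the authors are a signal (TPM-like, TMM-scaled going by the table's own name), never negative. Column totals ran from 1007530 to 1058206 in control and from 966031 to 983802 in VC, without overlap.

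Symbols came from GENCODE M21 (GRCm38) for 52081 of 55414 genes. Multiplying values by exon length gave whole reads within 0.1 for 98.7% to 98.9% of values up to 1000 reads; they were used for depth and for limma-voom only. The 13972 genes that reached 1 in 3 or more libraries were fitted as log2(value + 1) in limma 3.58.1 (R 4.3.3), VC minus control, with an intensity trend and Benjamini-Hochberg adjustment over all genes. The procedure was also run on simulated data with the same dispersion for every gene and no outlying library. That run therefore cannot speak to calls that were lost when a library was left out. Other steps used Python 3.11.15 with pandas 2.3.3.

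The 10 genes and 12 pathway lists (176 genes, 131 tested) were chosen with earlier results of these data known; 1 further list gene is not reported here. Named by rule were the 10 genes, every list gene past the threshold and the 3 other tested genes of highest mean in each list. So were cell type markers and the 3 genes closest in profile to each of the 2 genes with the smallest adjusted p. Outside this rule, Tcf4, Fst, Nbl1 and Atoh8 were named after their values were seen, and Cnn1, Hmga2, Cdkn1a and Bhlhe40 as limma-voom calls. Other genes with like values are not named. The 15 alternatives changed the pseudocount, filter, scaling, trend, block, reads model and libraries included. Promoters came from RefSeq.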

Additional observations from a re-analysis of the deposited data

How the results depend on the processing

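The direction of each of the 10 genes was kept under every alternative that tested it; Tgfb2 was not tested under the filter at 5. The number of genes called by limma, 96, became 30 with no filter, 183 with a filter at 5, 217 with equal totals, 6 with no intensity trend, 548 with limma-voom on recovered reads and 0 to 82 when 1 library was left out (1637 to 2484 with an unadjusted p under 0.05). The 1 call among the 10 genes became 0 with no filter, 0 with no intensity trend, 2 (Id3 and Id1) with limma-voom and 0 to 1 with 1 library left out. The 4 pathway calls became 1, 7, 7, 1 and 12 with no filter, the filter at 5, equal totals, no trend and limma-voom, and 0 to 4 with 1 library left out; all 4 remained without control replicate 3. The cause of these differences was not tested. With the replicate block limma called 0 genes, 0 of the 10 and 0 pathway genes (2039 genes unadjusted). Same-numbered libraries deviated from their group means with correlations of -0.0186, -0.0115 and 0.00506, so no shared deviation by number was seen. Whether the samples were paired is not stated, and these correlations cannot settle it. The block also takes up residual degrees of freedom.

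Signs changed for genes near 0 that had no call. With equal totals the log2 fold changes were 0.00052 for Bambi, 0.034 for Bgn, 0.068 for Bmpr1a, 0.040 for E2f4, 0.048 for Fstl1, 0.064 for Gdf11, 0.041 for Inhba, 0.025 for Rgma, 0.0075 for Smad4, 0.030 for Thbs1 and 0.054 for Yap1. After quantile normalization they were 0.063 for Bgn, 0.021 for E2f4, 0.014 for Fstl1, 0.0026 for Inhba, 0.012 for Itgb1 and 0.020 for Thbs1. With 1 library left out they were -0.0082 to 0.12 for Acvr1, -0.031 to 0.045 for Bmpr1a, -0.070 to 0.0097 for E2f4, -0.033 to 0.15 for Fn1, -0.037 to 0.025 for Gdf11, -0.11 to 0.018 for Inhba, -0.051 to 0.080 for Itgav, -0.0076 to 0.049 for Ltbp1 and -0.039 to 0.0078 for Yap1. Depth limits Tgfb2 most, at 119 to 150 reads.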
